A study of Arabidopsis thaliana with 10 samples.

Results

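The genes described here are 176 Arabidopsis thaliana genes annotated with a response to chitin that lie outside the large families of that response. They were taken from the 33602 genes of the deposited table, in which 237 genes carry the annotation. The choice dropped 53 genes whose names in the table begin with ERF, WRKY, ZAT, AZF, SZF, CML, HSF, BT, JAZ, LOX, MYB or CYP or that were listed by ID, and 8 further genes with fewer than 50 counts summed over the 10 libraries. The genes nearest to that minimum were ABI5, with 38 counts, on the outside and PUB21, with 55 counts, on the inside. Because the exclusion went by the names in the table, TIFY 5B, which is a JAZ-type repressor, and ATY13, which is a MYB-type factor, remained in the set. The rule used no expression difference between groups, but it was set with earlier results of these data known.

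Sequencing was of polyA RNA, taken at 4 weeks of age from the fifth true leaves, in 5 groups of 2 libraries. Wild type was Col-0 kept unstressed at 22 °C, and the 30C-grown plants (generation 1) were Col-0 moved to 30 °C after a first week on plates at 22 °C. Generation 2 was the unstressed offspring of the 30C-grown plants, and generation 3 the unstressed offspring of generation 2. The sgs3-12 plants carried a mutation in SGS3, a protein that acts with RDR6 in making the double-stranded RNA of trans-acting small RNAs, and were grown unstressed. All groups had 16 h of light and 8 h of dark, and the labels give no hour of harvest. Whether the 2 libraries of a group are from different plants or pools is not stated, so p-values reflect the spread between these samples alone, which may be technical.

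Chitin is a polymer of fungal cell walls, and plant cells sense its fragments with receptor kinases that carry LysM domains outside the cell. In Arabidopsis LYK5 binds chitin and CERK1 passes the signal on to cytoplasmic kinases and a MAP kinase cascade, followed by calcium influx, an oxidative burst and rapid transcription. Many of the genes that chitin induces within minutes, such as U-box and RING ubiquitin ligases, are also induced by wounding, touch and other stresses, and many hold W boxes, the sites that WRKY factors bind, in their promoters.

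The promoters were read from the RefSeq TAIR10.1 genome as the 250 bases upstream of each gene's start. The W-box core TTGAC, searched on both strands, was in 96 of 176 member promoters (54.5%) and in 45% of 26711 promoters of protein-coding nuclear genes. The core CGCGTT of the rapid stress response element, also searched on both strands, was in 15 member promoters (8.52%) against 2.6% of all promoters. Both cores were in 8 member promoters (4.55%) against 1.21%. The cores can share the letters TT where CGCGTT runs into TTGAC, and a match describes letters in the window, not a bound site. The promoters of 3 members with both cores are shown because the results turn on them, and that of SARD1 because its window held 4 W-box cores, with the cores of either strand in capitals and each sequence written 5′ to 3′ on the strand of its gene. The windows lie at chr1:24636946-24637195 (plus strand) for PUB20, chr1:24601783-24602032 (plus strand) for AT1G66090, chr5:3744448-3744697 (plus strand) for AT5G11650 and chr1:27749249-27749498 (minus strand) for SARD1.
PUB20: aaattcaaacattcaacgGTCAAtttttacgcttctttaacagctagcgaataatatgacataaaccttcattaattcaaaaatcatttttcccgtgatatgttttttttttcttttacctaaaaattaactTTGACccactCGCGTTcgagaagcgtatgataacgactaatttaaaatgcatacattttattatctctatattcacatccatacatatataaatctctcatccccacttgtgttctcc
AT1G66090: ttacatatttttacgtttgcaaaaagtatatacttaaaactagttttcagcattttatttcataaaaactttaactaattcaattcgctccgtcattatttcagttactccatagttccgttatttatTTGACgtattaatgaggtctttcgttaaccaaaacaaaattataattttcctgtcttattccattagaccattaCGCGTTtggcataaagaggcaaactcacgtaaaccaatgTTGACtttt
AT5G11650: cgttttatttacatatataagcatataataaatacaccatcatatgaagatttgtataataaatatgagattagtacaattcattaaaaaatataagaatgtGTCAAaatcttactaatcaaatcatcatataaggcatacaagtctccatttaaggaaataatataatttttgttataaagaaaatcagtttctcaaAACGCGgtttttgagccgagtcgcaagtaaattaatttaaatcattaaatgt
SARD1: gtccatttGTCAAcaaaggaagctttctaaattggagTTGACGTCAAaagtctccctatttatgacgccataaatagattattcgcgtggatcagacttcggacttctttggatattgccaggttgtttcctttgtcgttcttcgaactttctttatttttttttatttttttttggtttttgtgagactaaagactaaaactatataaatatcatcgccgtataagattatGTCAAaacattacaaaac

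Libraries held 17674090 to 23145159 counts, and levels are given as CPM, counts scaled to a common library size with TMM. The 6 leaf markers summed to between 43480 and 107300 CPM in every library, and 3 of 4 shoot meristem markers had no count in any library. SGS3 stood at 24.1 and 35.1 CPM in wild type and at 9.40 and 8.02 CPM in sgs3-12, but the generation 2 libraries, at 9.48 and 7.87 CPM, were as low, so its level does not set the mutant apart from every other group. Library 2 of generation 2 stood apart from the other 9 libraries for the members. Over all tested genes it was library 1 of generation 2 that stood apart, being the highest of the 10 for 23.5% and the lowest for 23.3% of them, with lower levels of long genes. The 2 wild-type libraries differed in clock genes and in opposite directions: the afternoon and evening genes PRR5 and TOC1 had 4.07 and 127 CPM and 14.3 and 163 CPM, and the morning genes CCA1 and LHY had 110 and 13.8 CPM and 21.6 and 4.08 CPM. The counts of members at an unadjusted p under 0.05 and of DESeq2 calls are also given without one or other of these libraries, as are the role medians that change sign.

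Of the 176 members, 173 passed edgeR's filter on low counts and were tested among 19768 genes. The other 3 were AT3G53600, with 143 of its 148 counts in library 2 of generation 2, AT5G57510 with 79 counts in all and AT3G43250 with 58. No member passed the edgeR quasi-likelihood test at a Benjamini-Hochberg adjusted p under 0.05 in any comparison, and neither did any other gene (0% of 19768 in each direction), so direction words below describe where values stood. Beside each comparison stand the number of members at an unadjusted p under 0.05, the number called by DESeq2, and the number whose 2 libraries lay beyond both libraries of the other group.

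Across the 10 libraries the members took from 0.621% to 1.73% of all counts. They were lowest in wild type, with 0.666% and 0.621%, followed by 0.906% to 1.07% in every other library except library 2 of generation 2, which reached 1.73%. The 4 plastid genes of the set, BCA2, ATPD, PDE334 and RPI3, supplied much of this: without them the shares were 0.168% and 0.281% in wild type, 0.235% to 0.423% in 7 other libraries, and 1.15% in library 2 of generation 2. BCA2 is a carbonic anhydrase and ATPD a subunit of the plastid ATP synthase. On the log2 scale the median member stood 0.81 and 0.57 above the wild-type mean in the 30C-grown libraries. The same value was 0.60 and 2.65 for generation 2, 0.95 and 0.77 for generation 3, and 0.47 and 0.72 for sgs3-12. The median of all tested genes lay between -0.04 and 0.14 in the same libraries.

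**Figure D1:**
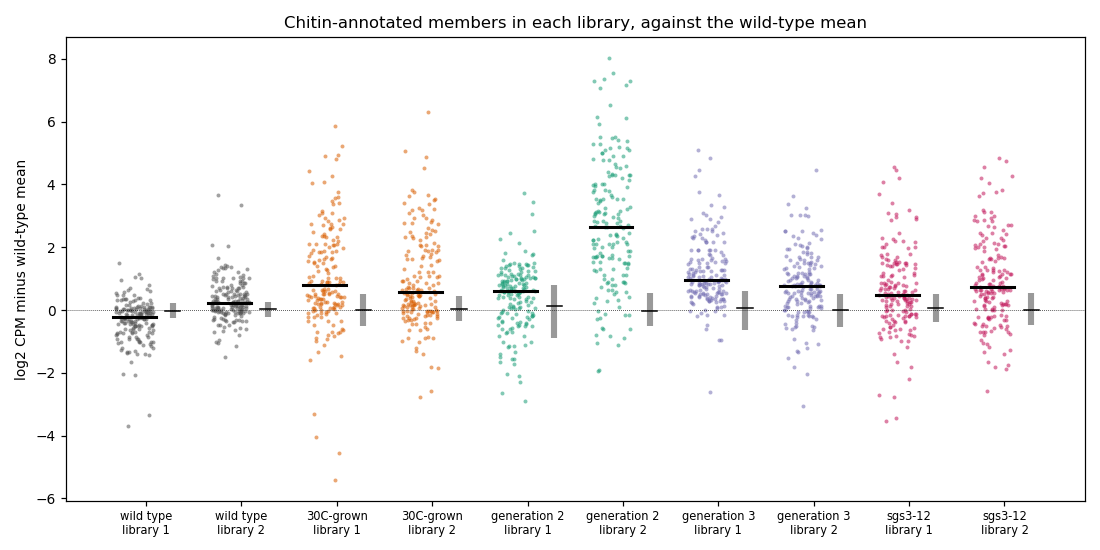
Log2 CPM of each of the 173 tested members minus its wild-type mean (y axis) in each of the 10 libraries (x axis), coloured by group, with a thick black bar at the median member. The grey bar beside each library spans the interquartile range of all 19768 tested genes and the thin black line their median; the members of library 2 of generation 2 centre on 2.65 and those of the other 7 non-wild-type libraries on 0.47 to 0.95.

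In library 2 of generation 2 the members reached levels seen in no other library. It was the highest of the 10 libraries for 127 of 173 members (73.4%), against 12.2% of all tested genes, and its level over library 1 of the same group had a median of 2.07 on the log2 scale over the members and -0.00 over all genes. In bulk leaf RNA a change in the number of cells of a type and a change in RNA per cell cannot be told apart. The difference between the libraries was over 8-fold for 67 members (38.7%) and for 7.75% of all genes. After a gene length adjustment the member median was 2.26. IOS1, a receptor kinase with a malectin-like domain, had 0.280 CPM in library 1 and 86.4 CPM in library 2. The other libraries held between 1.24 and 21.0 CPM of it. SRC2, a C2-domain membrane protein, had 183 CPM in library 1 and 913 CPM in library 2, and TIFY 5B had 0.280 and 26.3 CPM. Only 4 members (2.31%; 10.6% of all genes) were lowest in library 2 of generation 2. The RING-type ligase RHA1B was lower there than in library 1 of the group, with 32.0 CPM in library 1 and 5.54 CPM in library 2. The 3 touch-induced genes CML24, TCH3 and XTH22 summed to 1113 CPM in that library, to 158 CPM in library 1 of generation 2, to 65.9 and 92.2 CPM in wild type and to 110 to 261 CPM in the other 6. All 3 had counts in every library, and their part in the result was not tested.

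**Figure D2:**
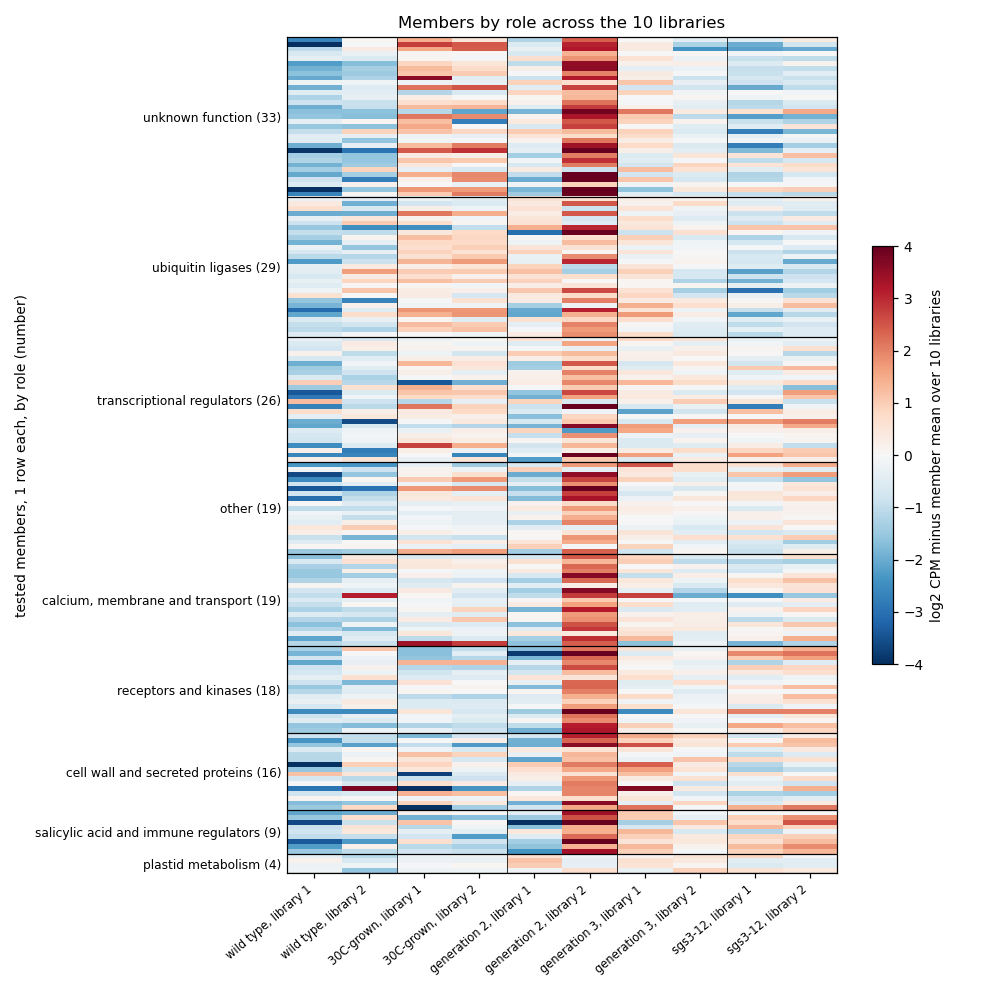
Log2 CPM of each tested member minus its own mean over the 10 libraries, 1 row per member grouped by role (number of tested members in brackets) and 1 column per library; colours are capped at 4 in either direction. The column of library 2 of generation 2 is red in most rows of every role except plastid metabolism, and the 30C-grown columns are red in the unknown-function block and pale or blue in the receptor and salicylic acid blocks.

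At 30 °C the members as a set stood above wild type, but not in every role. The median member log2 fold change was 0.56 (-0.02 over all genes), and 0.53 with the 4 members that had no usable wild-type level set at their bound. For 90 members (52.0%; 26.3% of all genes) both 30C-grown libraries exceeded the wild-type pair, and for 13 (7.51%; 25.2%) both were under it. At an unadjusted p under 0.05, 35 members were higher (4.93% of all genes were) and 4 lower (2.98%), and DESeq2 called 9 higher (1.09%) and 1 lower (0.425%). The lowest adjusted p of a member was 0.398, for PUB20, by the edgeR quasi-likelihood test with Benjamini-Hochberg adjustment. Without library 1 or 2 of wild type the count of 35 was 12 or 25, with either 30C-grown library left out it was 20, and with either generation 2 library left out it was 66, with edgeR then calling 9 members (library 1 left out) or 4 (library 2 left out) at the adjusted threshold. The 10 members that DESeq2 called were 4 or 9 without library 1 or 2 of wild type, and 46 or 40 without library 1 or 2 of generation 2. PUB20 was called in each of these 4 runs.

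Genes of unknown function made up the largest number of members above wild type at 30 °C, with 25 of 33. Ubiquitin ligases (14 of 29) and transcriptional regulators (14 of 26) followed in number, but these are the roles with the most tested members. Their shares lay near the 52.0% of all members, as did that of the calcium, membrane and transport proteins (10 of 19). Of 33 tested members with no assigned function, 29 had a positive log2 fold change, 25 lay above both wild-type libraries, and the median was 2.25. AT2G25735 had 1.68 and 1.53 CPM in wild type and 22.3 and 19.0 CPM at 30 °C, which is 3.68 ± 1.02 in log2 (SE over 2 libraries a group; adjusted p = 0.482 by edgeR and 0.0137 by DESeq2). AT1G23710 had 6.50 and 7.32 CPM in wild type and 43.6 and 40.7 CPM at 30 °C (log2 fold change 2.61 ± 0.61, edgeR adjusted p = 0.424). The groups do not overlap for either gene. AT1G32920 had 2.96 and 7.93 CPM in wild type and 50.7 and 65.7 CPM at 30 °C. AT3G10930 had 1 count in the 2 wild-type libraries together and 204 in the 30C-grown libraries, a ratio of 204 with an exact 95% binomial interval of 36.2 to 8087 that covers counting error only. AT1G25400 had 0.840 and 1.48 CPM in wild type, and 43.2 and 2.66 CPM in the 30C-grown libraries, so 1 library carries its fold change. AT5G45630 had 0 and 0.417 CPM in wild type and 4.47 and 4.36 CPM at 30 °C, again without overlap.

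Ubiquitin ligases mark proteins for degradation, and several of the U-box type dampen immune signalling. Of the 29 tested ligases 23 had a positive log2 fold change at 30 °C (median 0.74), 14 lay above both wild-type libraries and 0 below, and 9 were higher at an unadjusted p under 0.05. PUB20, a U-box ligase at chr1:24637196-24638608 in TAIR10, had 1.59 and 1.62 CPM in wild type and 27.9 and 17.4 CPM at 30 °C (log2 fold change 3.81 ± 0.69, edgeR adjusted p = 0.398, DESeq2 adjusted p = 5.68e-05). PUB27, of the same family, had 2.48 and 2.18 CPM in wild type and 9.82 and 11.7 CPM at 30 °C (log2 fold change 2.21 ± 0.57, edgeR adjusted p = 0.471). Both genes were separate from wild type in every 30C-grown library. The 26 transcriptional regulators had a median log2 fold change of 0.74 with 14 above and 1 below both wild-type libraries, and the 16 cell wall and secreted proteins a median of 0.41 with 6 above and 2 below. Without library 1 or library 2 of wild type the median of the unknown-function genes was 1.70 or 2.31, that of the ligases 0.89 or 1.40, and that of the regulators 0.56 or 0.90. Among the 19 calcium, membrane and transport proteins (median 0.26, 10 above and 0 below), AT5G66650, a calcium uniporter family protein, had 1.42 and 1.67 CPM in wild type and 34.0 and 22.5 CPM at 30 °C (log2 fold change 4.19 ± 1.13, edgeR adjusted p = 0.482). Its levels in the other groups were 1.01 and 16.7 CPM in generation 2, 0.995 and 2.68 CPM in generation 3 and 0.840 and 1.34 CPM in sgs3-12. AT3G02840, an armadillo-repeat protein that overlaps another gene in the annotation and is therefore uncertain, had 0.0884 and 0.139 CPM in wild type and 4.76 and 5.24 CPM at 30 °C. Touch genes and the members stood higher together here, with 65.9 and 92.2 CPM of the touch list in wild type and 261 and 230 CPM at 30 °C, and their part in the result was not tested.

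The receptors and kinases and the salicylic acid and immune regulators were split at 30 °C. The 18 receptors and kinases had a median log2 fold change of 0.00, with 6 above and 5 below both wild-type libraries. Over all genes 26.3% lay above and 25.2% below, so the receptor and kinase counts were near the background. The 9 salicylic acid and immune regulators had 4 members above and 1 below, with a median of -0.33. These medians depended on the wild-type library: without library 2 of wild type they were 0.32 and 0.62, and without library 1 they were -0.36 and -0.44. The 4 regulators above wild type were AT4G39670, YLS9, AT1G66090 and CBP60G. AT4G39670 had 0.133 and 0.325 CPM in wild type and 2.82 and 1.02 CPM at 30 °C (log2 fold change 3.04 ± 1.52, edgeR adjusted p = 0.675). YLS9 had 0.0442 and 0.556 CPM against 2.43 and 1.10 CPM, and AT1G66090 had 1.99 and 2.13 CPM against 9.67 and 8.88 CPM. The regulator below was SARD1. This gene, a factor that drives salicylic acid synthesis, had 6.45 and 29.0 CPM in wild type and 4.91 and 5.88 CPM at 30 °C (log2 fold change -1.71 ± 1.16, edgeR adjusted p = 0.785). SERK4, a coreceptor kinase, had 16.2 and 32.9 CPM in wild type and 13.1 and 12.3 CPM at 30 °C, and AT1G66880, a kinase that overlaps another gene, had 27.1 and 37.8 CPM against 14.8 and 20.5 CPM. SARD1, SERK4 and AT1G66880 lay below both wild-type libraries. Those libraries differed from each other by more CPM than library 1 of wild type differed from the 30C-grown mean. As a fold this held for SARD1 and SERK4 but not for AT1G66880. BG3, a beta-1,3-glucanase, had 0.354 and 41.1 CPM in wild type and 0.0486 and 0.550 CPM at 30 °C, so the groups overlap and library 2 holds 887 of its wild-type counts and library 1 holds 8. DESeq2 called it lower (adjusted p = 0.0218), with a log2 fold change of -6.05 ± 2.28 and an adjusted p of 0.573 by edgeR, and the DESeq2 adjusted p was 0.998 without library 2 of wild type. AT3G47380, a pectin methylesterase inhibitor family protein, had 2.79 and 1.72 CPM in wild type and 0.0486 and 0.803 CPM at 30 °C. ATY13 had 25 counts in the wild-type libraries and 2 in the 30C-grown libraries, a ratio of 0.0799 with an exact 95% binomial interval of 0.00917 to 0.321.

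In sgs3-12 the roles stood in a different order from that at 30 °C. The median member log2 fold change against wild type was 0.57 (0.01 over all genes), 89 members lay above both wild-type libraries (51.4%; 27% of all genes) and 24 below (13.9%; 24.6%). There were 14 members higher (8.09%; 4.98% of all genes) and 3 lower (1.73%; 4.93%) at an unadjusted p under 0.05. DESeq2 called 2 higher (1.16%; 1.44% of all genes) and 1 lower (0.578%; 1.6%), so it called members no more often than other genes. Those counts differ less from the background than the ones at 30 °C, and without library 1 or 2 of wild type the 14 were 9 or 8, without library 1 or 2 of sgs3-12 they were 8 or 5, and without library 1 or 2 of generation 2 they were 57 or 55. The 3 members that DESeq2 called were 6 or 4 without library 1 or 2 of wild type, and 38 or 34 without library 1 or 2 of generation 2. The lowest adjusted p of a member was 0.326 by the edgeR quasi-likelihood test with Benjamini-Hochberg adjustment, for BBX32.

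The salicylic acid and immune regulators lay above wild type in sgs3-12 for 8 of 9 members (median log2 fold change 2.04), and so did 12 of 18 receptors and kinases (median 1.05), with 0 below in either role. Over all genes 27% lay above and 24.6% below. At an unadjusted p under 0.05 by edgeR, 1 of the 9 regulators and 2 of the 18 receptors and kinases were higher. DESeq2 called 0 in either role. AT4G39670, a glycolipid transfer protein family member, had 0.133 and 0.325 CPM in wild type and 2.72 and 4.23 CPM in sgs3-12 (log2 fold change 3.90 ± 1.54, edgeR adjusted p = 0.464). SARD1 had 36.1 and 66.8 CPM in sgs3-12 against 6.45 and 29.0 CPM in wild type. Chosen after their values were seen, CBP60G, which acts beside SARD1, had 4.38 and 5.93 CPM in wild type and 22.8 and 30.3 CPM in sgs3-12, and DMR6, a salicylic acid hydroxylase, had 15.9 and 86.5 CPM against 181 and 274 CPM. The exception in the role was PAD4, a partner of EDS1, with 18.5 and 43.3 CPM in wild type and 14.2 and 28.3 CPM in sgs3-12, where the groups overlap. The ubiquitin ligases had a median of -0.08, with 7 of 29 above both wild-type libraries and 8 below, and the median was 0.19 without library 2 of wild type.

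BBX32, a B-box zinc finger protein that acts in light signalling (chr3:7412636-7413539), showed the clearest separation in sgs3-12. It had 1.64 and 0.510 CPM in wild type, 6.37 and 8.75 CPM at 30 °C, 4.21 and 13.6 CPM in generation 2, 4.31 and 21.2 CPM in generation 3, and 21.4 and 27.6 CPM in sgs3-12. All 8 libraries outside wild type lay above both wild-type libraries, and the 2 of sgs3-12 were the highest. The log2 fold change of sgs3-12 over wild type was 4.50 ± 0.96 (edgeR adjusted p = 0.326, DESeq2 adjusted p = 0.000128). Without library 2 of wild type the DESeq2 adjusted p was 0.0294. Clock genes also differed between these groups, though not all 7 that were listed. The log2 fold change of PRR9 was -0.22. LHY had 489 and 407 CPM in sgs3-12 against 21.6 and 4.08 CPM in wild type (log2 fold change 5.12, DESeq2 adjusted p = 0.0021), and PRR5 had 0.560 and 0.0445 CPM against 4.07 and 127 CPM. In generation 3, where BBX32 was low in library 1 and high in library 2, LHY had 31.4 and 304 CPM. The 7 listed clock genes summed to 986 and 841 CPM in sgs3-12, to 575 and 833 CPM in wild type and to 173 to 805 CPM in the other 6 libraries. These sums add genes that differed in opposite directions, such as LHY and PRR5. The part of the clock genes in the result was not tested. AT5G11650, an alpha/beta-hydrolase family protein whose promoter is shown above, had 17.7 and 9.09 CPM in wild type and 50.9 and 67.6 CPM in sgs3-12 (log2 fold change 2.15 ± 0.59, edgeR adjusted p = 0.350, DESeq2 adjusted p = 0.0306, and 0.447 without library 2 of wild type). AT3G46280, a kinase-related protein with no wild-type count, was at least 15.8-fold higher in sgs3-12, against a floor of 3 counts over the wild-type group. On the same floor BHLH41, a bHLH factor, was at least 10.6-fold higher and AT2G17740, a C1-domain protein, at least 6.83-fold higher. AT2G17740 had 70 counts in all libraries, and without the 22 of sgs3-12 it would fall below the count minimum of the set. Its place in the set therefore depends on the level compared here.

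Among the members that lay below wild type in sgs3-12, AT2G36220 was called by DESeq2. This gene of unknown function, which at chr2:15192480-15193698 overlaps AT2G36230, had 13.0 and 47.1 CPM in wild type and 3.72 and 7.04 CPM in sgs3-12 (log2 fold change -2.48 ± 0.72, edgeR adjusted p = 0.364, DESeq2 adjusted p = 0.0252, and 0.763 without library 2 of wild type). In the other 3 groups it ranged from 16.97 to 60.6 CPM. The RING-type ligases ATL45 and RHA1B stood at 1.36 and 4.14 CPM and at 3.08 and 6.28 CPM in sgs3-12, against 9.77 and 23.7 CPM and 10.3 and 44.5 CPM in wild type. ATL14, another RING-type ligase, had 0.707 and 1.62 CPM in wild type and 0.200 and 0.534 CPM in sgs3-12. PLP2, a patatin-like lipid hydrolase, had 2.74 and 48.7 CPM in wild type and 0.960 and 1.92 CPM in sgs3-12. The wild-type libraries differed from each other by over 2-fold for each of these genes, and the adjusted p-values of the last 4 were between 0.410 and 0.551 by the edgeR quasi-likelihood test with Benjamini-Hochberg adjustment.

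**Figure D3:**
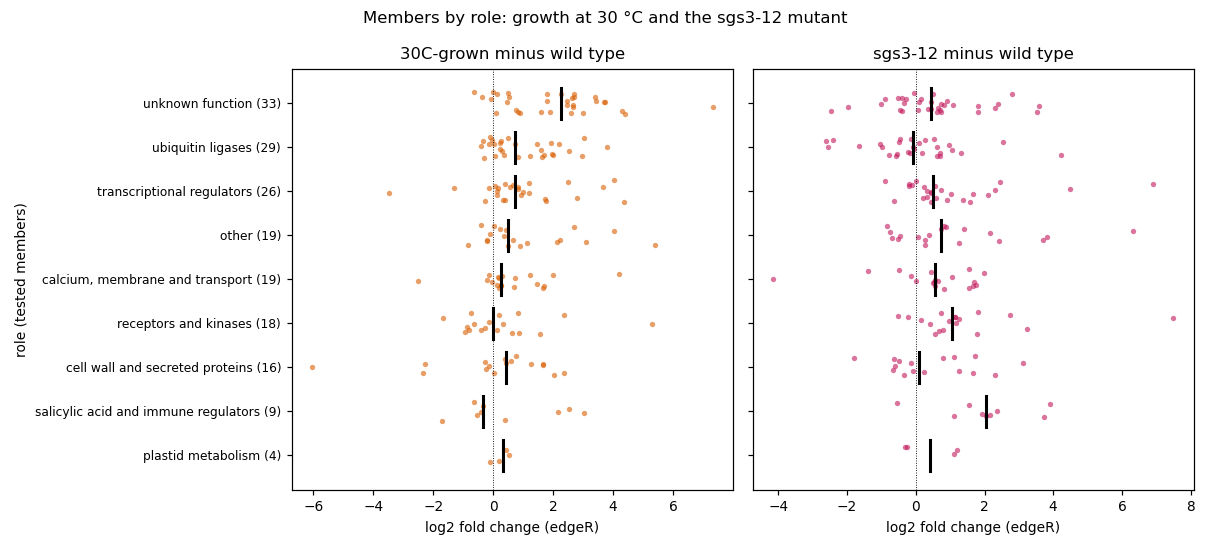
Log2 fold change (x axis) of each tested member, by role (y axis, number of tested members in brackets), for the 30C-grown plants (left) and sgs3-12 (right) against the same 2 wild-type libraries; black bars are medians. The median of the unknown-function genes is 2.25 at left and 0.45 at right, and that of the salicylic acid and immune regulators is -0.33 at left and 2.04 at right.

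The direct comparison of sgs3-12 with the 30C-grown plants tests this difference gene by gene. Its fold changes do not use the wild-type libraries, which enter its p-values through the spread estimated over all 10 libraries. It was added after the data had been seen. The median member log2 fold change was -0.12 (-0.00 over all genes), with 55 members above both 30C-grown libraries (31.8%; 32.5% of all genes) and 79 below (45.7%; 34.1%). At an unadjusted p under 0.05, 9 members were higher (5.4% of all genes) and 33 lower (6.44%), and DESeq2 called 1 higher (1.45%) and 9 lower (1.94%). Of the ubiquitin ligases 20 of 29 lay below and 3 above (median -1.08), and of the genes of unknown function 24 of 33 lay below and 4 above (median -1.34). Of the receptors and kinases 13 of 18 lay above and 3 below (median 1.07), and of the salicylic acid regulators 5 of 9 lay above and 1 below (median 1.64). edgeR called 0 members with all 10 libraries (lowest adjusted p 0.250), but 12 and 13 when library 1 or library 2 of generation 2 was left out, and 71 in a fit of the 4 libraries compared alone, which leaves wild type out altogether. DESeq2 called 54 and 51 without library 1 or 2 of generation 2, and 14 without either wild-type library. The 33 lower members were 13 or 18 without library 1 or 2 of the 30C-grown plants and 10 or 14 without library 1 or 2 of sgs3-12, and 50 without either generation 2 library.

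DESeq2 called 10 members in this comparison with all libraries, and each of them also in the 4 runs without a wild-type or generation 2 library. AT2G36220 had 55.5 and 45.1 CPM at 30 °C and 3.72 and 7.04 CPM in sgs3-12 (log2 fold change -3.23 ± 0.74, edgeR adjusted p = 0.250, DESeq2 adjusted p = 0.000901). PUB25, a U-box ligase, had 48.8 and 38.6 CPM at 30 °C and 14.3 and 11.3 CPM in sgs3-12 (-1.77 ± 0.41, edgeR adjusted p = 0.253), and its wild-type level was 16.5 and 20.7 CPM. PUB20 had 3.48 and 3.16 CPM in sgs3-12 against 27.9 and 17.4 CPM at 30 °C (-2.77 ± 0.65, edgeR adjusted p = 0.256). These 3 members were separate between the groups in all 4 libraries. AT3G59080, an aspartyl protease family protein, had 23.1 and 20.2 CPM at 30 °C and 3.56 and 3.34 CPM in sgs3-12. AT2G25735, AT1G32920, AT1G07135, AT3G04640 and AT5G66650 were also called lower, with log2 fold changes from -3.69 to -4.69. The member called higher was AT5G55450, a lipid transfer protein family gene, with 0.437 and 3.93 CPM at 30 °C and 27.2 and 43.7 CPM in sgs3-12 (4.01 ± 1.33, edgeR adjusted p = 0.342, DESeq2 adjusted p = 0.0181). IOS1 stood at 1.41 and 3.43 CPM at 30 °C and at 17.6 and 21.0 CPM in sgs3-12 (2.99 ± 1.68, edgeR adjusted p = 0.507), and SARD1 at 4.91 and 5.88 CPM against 36.1 and 66.8 CPM (3.25 ± 1.22, edgeR adjusted p = 0.373). AT1G05575, of unknown function, had 5.44 and 4.44 CPM at 30 °C and 0.160 and 0.445 CPM in sgs3-12. PUB21, with 25 counts at 30 °C and 1 in sgs3-12, had a ratio of 0.0373 with an exact 95% binomial interval of 0.000908 to 0.228. PUB21 had 55 counts in all libraries, and without the 25 at 30 °C it would fall below the count minimum of the set. Its place in the set therefore depends on the level compared here.

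In generation 2 the members stood above wild type in both libraries, by little in library 1 and by much in library 2. The median log2 fold change of the pair was 1.81 (0.11 over all genes), and without library 2 it was 0.33. For 83 members (48.0%; 16.8% of all genes) both libraries exceeded the wild-type pair, and for 2 (1.16%; 17.2%) both were under it. Library 1 alone lay above both wild-type libraries for 91 members (52.6%; 43.7% of all genes) and below for 31 (17.9%; 36.5%), and library 2 alone for 152 (87.9%; 34.5%) and 9 (5.20%; 38.7%). At an unadjusted p under 0.05, 93 members were higher (7.16% of all genes) and 1 lower (4.48%), and DESeq2 called 55 higher (2.33%) and 0 lower (1.05%). The 93 were 25 without library 2 of generation 2, 124 without its library 1, 43 without library 1 of wild type and 54 without library 2 of wild type. edgeR called 0 members with all libraries (lowest adjusted p 0.357), 83 without library 1 of generation 2 and 5 without library 2. The 55 that DESeq2 called were 24 or 23 without library 1 or 2 of wild type, 111 without library 1 of generation 2, and 15 without its library 2, of which 11 were higher and 4 lower.

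Members with both generation 2 libraries above wild type came from every role. The role medians rested on library 2: those of the receptors and kinases, the salicylic acid and immune regulators and the genes of unknown function were 1.95, 2.50 and 2.93 with both libraries and -0.23, -1.20 and 0.62 without it. PUB20, AT1G66090, AT1G19380, SAP6 and SRC2 were called by DESeq2 also without library 2. PUB20 had 7.91 and 35.1 CPM, against 1.59 and 1.62 CPM in wild type (log2 fold change 3.74 ± 0.68, edgeR adjusted p = 0.357, DESeq2 adjusted p = 7.80e-05). AT1G66090, a TIR-NBS protein of the resistance-gene class whose promoter is shown beside that of PUB20, had 1.99 and 2.13 CPM in wild type and 6.28 and 90.2 CPM in generation 2 (4.55 ± 1.08, edgeR adjusted p = 0.357). AT1G19380, of unknown function, had 1.99 and 2.97 CPM in wild type and 8.97 and 90.5 CPM in generation 2. Neither gene overlaps wild type, and for both library 2 stood far above library 1. SAP6, an A20/AN1 zinc finger protein, differed less between the libraries, with 94.5 and 237 CPM against 35.9 and 36.3 CPM in wild type (log2 fold change 2.2 ± 0.49, edgeR adjusted p = 0.357). AT4G27280, an EF-hand calcium-binding protein, had 16.3 and 54.8 CPM against 6.68 and 6.26 CPM in wild type, and SRC2 had 183 and 913 CPM against 75.2 and 83.3 CPM. PUB28, a U-box ligase, had 1.46 and 4.81 CPM against 0.354 and 0.139 CPM. AT3G46280, with no wild-type count, was at least 58.7-fold higher, but 1 of its 2 generation 2 libraries held 0.0561 CPM and the other 7.39 CPM. ATL9, a ligase with 1 wild-type count, had 55 counts in generation 2, a ratio of 63.3 with an exact 95% binomial interval of 10.9 to 2544. ATL9 had 93 counts in all libraries, and without the 55 of generation 2 it would fall below the count minimum of the set.

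Compared with their 30C-grown parents, the generation 2 plants stood higher or lower depending on which library represented them. The median member log2 fold change was 0.95 (0.07 over all genes) with both libraries, 1.60 without library 1 and -0.51 without library 2. Both libraries lay above both 30C-grown libraries for 47 members (27.2%; 16.7% of all genes) and below for 8 (4.62%; 18.7%). Higher at an unadjusted p under 0.05 were 39 members (5.3% of all genes) and lower 0 (4.05%), and DESeq2 called 4 higher (1.11%) and 0 lower (0.637%). The 39 were 5 without library 2 of generation 2, 103 without library 1, 7 without either 30C-grown library and 22 without either sgs3-12 library, and edgeR called 38 members without library 1 and 0 with all (lowest adjusted p 0.476). AT1G61260, of unknown function, was called by DESeq2 with libraries that were alike: 2.38 and 3.59 CPM at 30 °C and 9.98 and 12.8 CPM in generation 2 (1.93 ± 0.45, edgeR adjusted p = 0.476, DESeq2 adjusted p = 0.00925). The other 3 called members were ATL9, AT1G02360, a chitinase family gene with 0.826 and 1.73 CPM at 30 °C and 1.79 and 26.0 CPM in generation 2, and AT2G18690, with 5.93 and 3.04 CPM against 3.59 and 193 CPM. As stated above, ATL9 is in the set only through its generation 2 counts. Without library 2 of generation 2, 44 members were lower at an unadjusted p under 0.05 and DESeq2 called 33 members, 2 higher and 31 lower, among them AT1G61260 (adjusted p = 0.0363) and neither AT1G02360 (0.761) nor AT2G18690 (0.782), and without library 1 it called 78. AT2G18690 overlaps between the groups, and its log2 fold change of 4.46 was -0.49 without library 2 of generation 2. On the lower side AT5G66650 had 34.0 and 22.5 CPM at 30 °C and 1.01 and 16.7 CPM in generation 2, and ATL6, a RING-type ligase, 37.7 and 28.8 CPM against 16.7 and 25.3 CPM.

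In generation 3 the members stood above wild type with smaller differences and with libraries closer to each other. The median log2 fold change was 0.77 (0.04 over all genes), 93 members lay above both wild-type libraries (53.8%; 21.1% of all genes) and 2 below (1.16%; 22.2%). At an unadjusted p under 0.05, 18 members were higher (4.36% of all genes) and 2 lower (4.22%), and DESeq2 called 2 higher (0.521%) and 0 lower (0.551%). The 18 were 13 without library 1 of wild type, 8 without library 2 of wild type or library 1 of generation 3, 9 without either sgs3-12 library, 11 without either 30C-grown library, and 57 and 53 without library 1 or 2 of generation 2, where DESeq2 called 30 and 27. The lowest adjusted p of a member was 0.548 by the edgeR quasi-likelihood test with Benjamini-Hochberg adjustment.

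The members that DESeq2 called in generation 3 were BBX32 and AT3G16530, a legume lectin family protein. AT3G16530 had 19.2 and 34.2 CPM in wild type and 179 and 82.5 CPM in generation 3 (log2 fold change 2.29 ± 0.55, edgeR adjusted p = 0.548, DESeq2 adjusted p = 0.0116, and 0.130 without library 1 of wild type). BBX32 had an adjusted p of 0.281 by DESeq2 in generation 3 without library 2 of wild type. AT3G16530 had 78.3 and 48.8 CPM at 30 °C, 90.9 and 161 CPM in generation 2 and 21.6 and 29.1 CPM in sgs3-12, so the 3 Col-0 generations that descend from the 30 °C treatment lay above wild type and sgs3-12 overlapped it. AT1G26420, a berberine bridge enzyme-like oxidase, had 0.310 and 0.185 CPM in wild type and 6.24 and 1.46 CPM in generation 3 (3.92 ± 1.57, edgeR adjusted p = 0.560). AT4G39670 had 2.59 and 2.43 CPM in generation 3 against 0.133 and 0.325 CPM in wild type. SUVH5, a histone H3 methyltransferase, lay below wild type, with 2.21 and 1.58 CPM there and 0.265 and 0.778 CPM in generation 3 (-1.82 ± 0.67, edgeR adjusted p = 0.548).

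Between generation 2 and generation 3 the direction again followed library 2 of generation 2. The median member log2 fold change of generation 3 over generation 2 was -1.02 (-0.05 over all genes), and it was 0.49 without that library. Both generation 3 libraries lay below both generation 2 libraries for 21 members (12.1%; 6.27% of all genes) and above for 3 (1.73%; 5.78%), which were ATL55, AT4G29110 and PTL. At an unadjusted p under 0.05, 25 members were lower (1.35% of all genes) and 1 higher (0.314%), and DESeq2 called 0 in each direction (0.00506% each), 74 (73 lower) without library 1 of generation 2 and 13 (all higher) without its library 2. The 25 were 0 without library 2 of generation 2 and 110 without library 1, 15 without library 2 of wild type, 12 without either 30C-grown library or library 1 of generation 3, 3 without library 2 of generation 3 and 13 without either sgs3-12 library. PUB20 was lower in generation 3 whichever library is read, with 5.64 and 5.11 CPM against 7.91 and 35.1 CPM. AT1G19380 had 5.77 and 6.37 CPM in generation 3 against 8.97 and 90.5 CPM in generation 2 (-3.03 ± 0.89, edgeR adjusted p = 1), and AT1G32920 had 6.63 and 6.81 CPM against 8.41 and 74.3 CPM. AT1G74450, of unknown function, had 25.9 and 21.3 CPM against 29.7 and 121 CPM. ATL55, a RING-type ligase, had 344 and 207 CPM in generation 3 and 51.3 and 113 CPM in generation 2, but its wild-type libraries stood at 35.8 and 147 CPM.

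**Figure D4:**
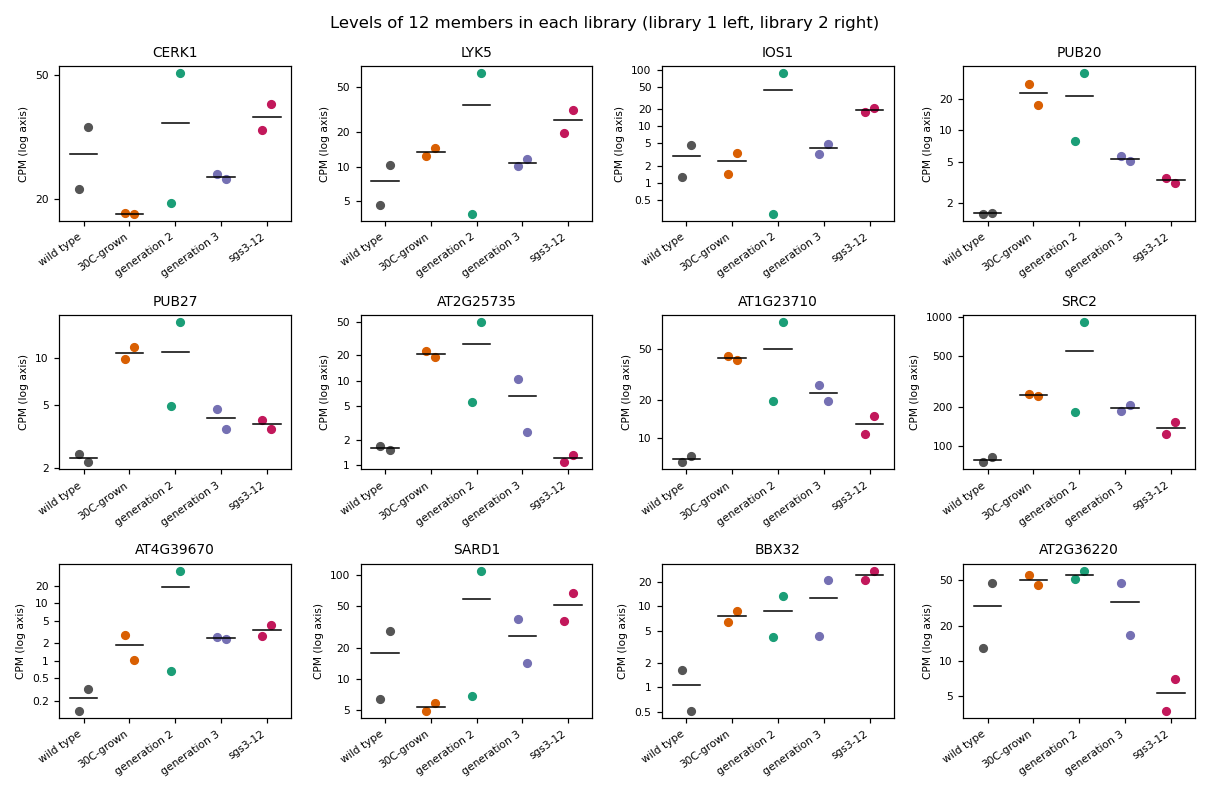
CPM on a log axis (y axis, its own scale in each panel) of 12 members in the 5 groups (x axis); points are libraries, library 1 at left and library 2 at right, and black lines are means of the 2 libraries. PUB20 lies between 1.59 and 1.62 CPM in wild type and at 3.16 CPM or more in every other library, IOS1 spans 0.280 to 86.4 CPM within generation 2, and AT2G36220 is lowest in sgs3-12.

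A subset of members stood above wild type in every group. Both libraries lay above both wild-type libraries in each of the 3 generations for 47 members (27.2%; 7.02% of all genes), and in sgs3-12 as well for 36 (20.8%; 4.81%). These comparisons share the same 2 wild-type libraries, of which library 1 was the lowest of all 10 libraries for 65 members (37.6%; 11.5% of all genes). The clock genes PRR7 and GI also set both wild-type libraries apart from all others, and their part in this pattern was not tested. Without library 2 of generation 2 the 47 and 36 were 48 (9.87% of all genes) and 36 (5.54%), and without its library 1 they were 60 and 46. Without library 1 of wild type they were 61 (17.9%) and 50 (14.7%), and without library 2 of wild type 93 (17.1%) and 78 (13%). The 36 included 12 genes of unknown function, 6 of calcium, membrane and transport, 5 transcriptional regulators and 4 ubiquitin ligases, which were PUB20, PUB27, PUB28 and RDUF1. SRC2 showed the pattern at high counts, with 75.2 and 83.3 CPM in wild type, 253 and 243 CPM at 30 °C, 183 and 913 CPM in generation 2, 189 and 210 CPM in generation 3, and 126 and 153 CPM in sgs3-12. No library of SRC2 outside wild type overlaps the wild-type pair. AT4G32440, a Tudor-like RNA-binding protein, was the 1 member below both wild-type libraries in all 3 generations (0.578%; 8.94% of all genes), with 16.8 and 25.4 CPM in wild type, 12.0 and 11.5 CPM at 30 °C, 9.25 and 9.57 CPM in generation 2, and 10.7 and 8.17 CPM in generation 3. In sgs3-12 it had 18.1 and 12.6 CPM and overlapped wild type.

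The LysM receptors that sense chitin differed from each other in their levels across the groups. CERK1 (chr3:7615385-7618581) had 21.5 and 34.3 CPM in wild type, 18.0 and 18.0 CPM at 30 °C, 19.5 and 50.8 CPM in generation 2, 24.1 and 23.2 CPM in generation 3, and 33.4 and 40.4 CPM in sgs3-12. The 30C-grown libraries lay below and no group lay above the wild-type pair. LYK5, the main chitin-binding receptor, had 4.55 and 10.3 CPM in wild type and 12.5 and 14.5 CPM at 30 °C, and it reached 19.8 and 31.4 CPM in sgs3-12, above both wild-type libraries in each case. In generation 2 it had 3.81 and 66.6 CPM, and in generation 3, at 10.1 and 11.6 CPM, it overlapped wild type. Per length, the authors' deposited FPKM values put the wild-type mean of CERK1 at 13.8 FPKM, LYK4 at 8.16 FPKM and LYK5 at 3.40 FPKM. LYK4, a further LysM receptor, stayed between 8.75 and 20.1 CPM in all 10 libraries. MPK3, a MAP kinase of the cascade, had 82.8 and 153 CPM in wild type, 88.4 and 90.4 CPM at 30 °C, 126 and 412 CPM in generation 2, 202 and 124 CPM in generation 3, and 86.3 and 116 CPM in sgs3-12, and no group was separate from wild type. ATEP3, a chitinase, had 2.52 and 1.90 CPM in wild type and 4.88 and 13.7 CPM in generation 2, where DESeq2 called it (adjusted p = 0.0400, edgeR adjusted p = 0.357; 0.242 by DESeq2 without library 2 of generation 2), and 5.31 and 6.32 CPM in generation 3.

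Of a list of 38 genes of chitin perception and early signalling, 36 were tested, 6 of them members. edgeR called 0 in any comparison. Against wild type DESeq2 called 1 higher at 30 °C (1.09% of all genes) and 2 higher in generation 2 (2.33%). It called 0 in generation 3 (0.521% of all genes higher, 0.551% lower) and 1 lower in sgs3-12 (1.6%). At an unadjusted p under 0.05 edgeR had 1, 5, 2 and 2 of the 36 higher and 0, 0, 0 and 2 lower in the same order. Over all genes 4.93%, 7.16%, 4.36% and 4.98% were higher and 2.98%, 4.48%, 4.22% and 4.93% lower. The counts of higher genes in generation 3 and sgs3-12 lay near these shares. At 30 °C 6 of the 36 lay above and 8 below the wild-type pair (16.7% and 22.2%, against 26.3% and 25.2% of all genes; median log2 fold change -0.08). In generation 2 there were 8 above and 3 below (22.2% and 8.33%, against 16.8% and 17.2%; median 0.48), in generation 3 8 above and 5 below (22.2% and 13.9%, against 21.1% and 22.2%; 0.10), and in sgs3-12 12 above and 5 below (33.3% and 13.9%, against 27% and 24.6%; 0.17). The share above wild type lay nearest to that of all genes in generation 3. With 36 genes tested, the differences in the other groups are not read as departures from the background. The dropped families of the annotation, such as WRKY and ERF factors, had larger medians than the members: 1.89 at 30 °C, 2.81 in generation 2 and 1.17 in generation 3 over 52 tested genes. In sgs3-12 their median was 0.60, beside 0.57 for the members.

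Single-exon genes were more frequent among the members than among all genes. Of the 173 tested members 67 (38.7%) had a single exon, against 13.8% of 18978 tested protein-coding nuclear genes, and their median exon length was 1679 bases, against 1792. The single-exon members had a median log2 fold change of 1.65 at 30 °C, and the 106 multi-exon members 0.26. Over all genes the medians were 0.35 and -0.06. For generation 2 the single-exon and multi-exon medians were 2.32 and 1.56 over the members and 0.46 and 0.07 over all genes. For generation 3 they were 1.02 and 0.72 against 0.32 and 0.01, about the same gap in the members as in all genes, and for sgs3-12 0.44 and 0.65 against -0.04 and 0.02. Single-exon genes were unevenly spread over the roles, with 18 of 33 genes of unknown function, 20 of 29 ubiquitin ligases and 4 of 18 receptors and kinases. Library 1 of generation 2 and library 1 of generation 3 had lower levels of long genes, with slopes of -2.71 and -1.51 log2 units per 10-fold of exon length against -0.55 to 1.46 in the other 8, and the share of this in the member values was not tested beyond the length-adjusted fits.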

How the data were processed

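Both units used, raw read counts and FPKM, were deposited by the authors in 1 table and are named per the file headers. HISAT2 2.0.4, StringTie 1.3.0 and TAIR10 are named in the submitters' processing notes. No source used here names the counting program or its strand setting, so the 13 members that overlap another gene are uncertain. The deposited FPKM values (per length and library size) served only for levels between genes in wild type, and 2 FPKM columns with the same name were not used. All 176 members matched RefSeq (TAIR10.1) by locus tag.

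Counts were tested with edgeR 4.0.16 (R 4.3.3): TMM scaling, filterByExpr, and the quasi-likelihood F-test fitted to the 10 libraries together with a group factor and no covariate, with Benjamini-Hochberg adjustment over 19768 genes and a threshold of 0.05. The steps were tested on simulated data. Errors of fold changes are standard errors, and n is 2 libraries per group. DESeq2 1.42.0, other scaling, no filter, a replicate block, a gene length offset, fits of 4 libraries and leaving out each library were alternatives. DESeq2 and the role medians without a wild-type or generation 2 library were added after the data had been seen. Where a group had no count, a floor of 3 counts over the group was used, and ratios with 1 to 3 counts have exact 95% binomial intervals, which cover counting error only. Genes were named by a rule: in each comparison, members with both libraries beyond the other group and the 6 largest or smallest fold changes, members called by edgeR or DESeq2 (at most 10 per direction), and members on the list of chitin perception genes. Roles were assigned by hand from the deposited descriptions. The members, the lists and the added comparison of sgs3-12 with the 30C-grown plants were chosen with earlier results of these data known.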

Additional observations from a re-analysis of the deposited data

How the results depend on the processing

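The edgeR quasi-likelihood test with all libraries called 0 members in each of the 7 comparisons, as it did with DESeq2-style size factors, with no filter on low counts, with the gene length offset and with the replicate block. In the order 30C-grown, generation 2, generation 3 and sgs3-12 against wild type, generation 2 against 30C-grown, generation 3 against generation 2, and sgs3-12 against 30C-grown, DESeq2 called 10, 55, 2, 3, 4, 0 and 10 members. Without library 1 of both generation 2 and generation 3, edgeR called 12, 96, 0, 17, 51, 0 and 28, and in fits of the 4 libraries compared it called 71 in the last comparison and 0 in the others. Leaving out 1 library at a time, the calls ranged from 0 to 9, 0 to 83, 0 to 0, 0 to 0, 0 to 38, 0 to 33 and 0 to 13, and the median log2 fold changes from 0.50 to 0.94, 0.33 to 2.61, 0.58 to 1.06, 0.35 to 0.76, -0.51 to 1.60, -1.69 to 0.49 and -0.26 to -0.07. The medians of generation 2 against 30C-grown (-0.51) and of generation 3 against generation 2 (0.49) reversed without library 2 of generation 2. AT2G18690 reversed in the former too (-0.49, against 5.43 without library 1). No other gene reversed in the comparison whose fold changes or calls named it. In other comparisons, genes named here did reverse. For generation 2 against wild type without library 2 of generation 2, DESeq2 gave log2 fold changes of -4.91 for YLS9, -1.26 for CBP60G, -0.29 for AT2G18690 and -0.21 for AT1G26420. Members not named above also reversed in that run: PUB23 (-2.23), BCS1 (-0.79), AT5G05300 (-0.75), AT4G20860 (-0.33) and SAP12 (-0.12). With all libraries DESeq2 called all of these genes higher.

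Counts at an unadjusted p under 0.05 were the most dependent on the fit. In the same order they were 35, 93, 18, 14 and 39 higher and 25 and 33 lower with all libraries, 59, 40, 36, 44, 11, 2 and 57 in fits of 4 libraries, and 68, 132, 48, 62, 109, 108 and 51 without library 1 of both generations. DESeq2 gave 32 in generation 3, 25 in sgs3-12 and 45 for generation 3 against generation 2. Leaving out 1 library, they ranged from 12 to 66, 25 to 124, 8 to 57, 5 to 57, 5 to 103, 0 to 110 and 10 to 50. The cause was not tested.

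Libraries with the same number in different groups did not deviate together in every pair of groups: the correlation of their deviations ran from -0.262 to 0.435 over 10 pairs of groups and passed 0.1 in 6, so the numbers were not taken to pair the samples. With the replicate block the medians were 0.63, 1.72, 0.86, 0.58, 0.82, -0.84 and -0.14, 0 members were called, and the count of members lower in generation 3 than in generation 2 was 11 (13 with the length offset added). Depth limits the members with few counts, which have bounds or intervals in place of fold changes.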
